A study of Mus musculus with 6 samples.

Results

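The genes that drove Cre recombinase in these mice, Sp7 and S100a4, were examined together with 8 genes of the osteoblast lineage, Runx2, Alpl, Bglap, Ibsp, Spp1, Dmp1, Sost and Pth1r, in RNA from spontaneous soft tissue tumors. The members were chosen by symbol, 10 of the 23358 gene entries in the count table, and all 10 were found there. S100a4 was the most abundant of the 10 members in every tumor, whereas Sp7 rested on 2 to 22 counts per tumor and the late osteoblast and osteocyte genes Bglap, Ibsp and Sost on 0 to 46. Of the 6 members with enough counts to test, 0 differed between the mouse lines past an adjusted p of 0.05 by edgeR.

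The tumors came from 6 female mice that carried NT3, an allele of the NF-κB-inducing kinase NIK without its TRAF3-binding domain. This allele sits in the ROSA26 locus behind a loxP-flanked stop cassette, so that Cre turns it on, and its strain background was C57Bl/6J. In Osx-Cre;NT3 mice (tumors 13, 18 and 25, all on the trunk, with latencies of 150, 168 and 115 days) Cre was a GFP::Cre fusion under a Tet-OFF Sp7 promoter in mice of mixed C57Bl/6J and CD1 strain, held off by doxycycline chow until weaning. In FSP1-Cre;NT3 mice (tumors 27 and 36, perineal, and tumor 29, trunk, with latencies of 101, 52 and 72 days) Cre was under the S100a4 promoter on an FVB/n background, and no doxycycline is described for them. Strain background, the described doxycycline feeding and latency therefore differ along with the driver and cannot be told apart from it. The average RNA integrity that the paper reports was also lower for Osx-Cre;NT3 than for FSP1-Cre;NT3 tumors. Site differs in part, since tumor 29 alone of its line was from the trunk. No benign tissue was analysed here. The table has 0 rows for Cre or GFP, so the drivers were read only through the endogenous genes at the time of harvest. Recombination is permanent in a cell and its descendants, so as background, the level of a driver gene in a tumor need not reflect its level when the allele was recombined.

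Osteoblasts arise from mesenchymal progenitors under the transcription factor Runx2 and then osterix, the product of Sp7, which acts downstream of it. Maturing osteoblasts make alkaline phosphatase (Alpl) and a matrix of type I collagen with bone sialoprotein (Ibsp), osteopontin (Spp1) and osteocalcin (Bglap), and those that become buried as osteocytes make Dmp1 and sclerostin (Sost). S100a4, also called fibroblast-specific protein, is a small calcium-binding protein of fibroblasts that is also made by macrophages and other leukocytes. In bulk tumor RNA, fewer cells of a type and less RNA per cell cannot be told apart.

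Total counts per tumor ranged from 51824408 to 163297772, and Rn45s, a ribosomal RNA entry, took 5.28% to 13.3% of them. Every count in the table was even, which would follow if paired reads were each counted, so that 2 counts may be 1 sequenced fragment. Keratinocyte genes were abundant in all tumors, with Krt5 at 2591 to 6087 CPM (counts scaled to library sizes with TMM factors), and macrophage markers summed to 1641 to 3918 CPM. Tumor 36 stood apart by its smooth muscle markers, which summed to 3036 CPM against 277 to 587 CPM in the other tumors.

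Among the sequences of the members, that of osteocalcin matters most for reading the counts, since Bglap has a near-identical neighbor on chromosome 3, Bglap2. The first 90 coding bases of each, 5′ to 3′ from the start codon, are shown from GENCODE M21 on GRCm38, with capitals at the 3 positions where they differ.
Bglap: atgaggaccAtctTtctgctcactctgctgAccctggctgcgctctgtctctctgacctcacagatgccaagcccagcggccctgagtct
Bglap2: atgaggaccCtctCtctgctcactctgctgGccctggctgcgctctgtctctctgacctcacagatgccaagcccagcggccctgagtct
Of all 50-base windows of the Bglap transcript, 74.7% also occurred in a transcript of Bglap2. A read that lies wholly within such shared sequence cannot be assigned by its own bases, so the counts of both genes are uncertain.

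The regions just upstream of S100a4, Bglap and Spp1, the most abundant member, the osteocalcin gene and the most abundant matrix gene among the members, are shown because they differ in 2 short motifs of promoters. Each run is the 250 bases before a RefSeq transcript start on GRCm38.p6, printed 5′ to 3′ on the strand of the gene, with capitals at the core of the RUNX motif (ACCACA) and at TATAAA, the letters of the TATA box. These were S100a4 at chr3:90603520-90603769 (plus strand), Bglap at chr3:88384467-88384716 (minus strand) and Spp1 at chr5:104434861-104435110 (plus strand).
S100a4: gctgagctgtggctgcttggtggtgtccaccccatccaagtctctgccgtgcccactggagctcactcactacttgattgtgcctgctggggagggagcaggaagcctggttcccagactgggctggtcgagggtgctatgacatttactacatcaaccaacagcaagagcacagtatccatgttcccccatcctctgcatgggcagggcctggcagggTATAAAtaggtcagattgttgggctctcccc
Bglap: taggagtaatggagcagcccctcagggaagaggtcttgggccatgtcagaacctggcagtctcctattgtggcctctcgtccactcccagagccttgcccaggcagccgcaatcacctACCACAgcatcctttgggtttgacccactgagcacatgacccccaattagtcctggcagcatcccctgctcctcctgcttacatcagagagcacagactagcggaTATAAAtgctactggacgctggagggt
Spp1: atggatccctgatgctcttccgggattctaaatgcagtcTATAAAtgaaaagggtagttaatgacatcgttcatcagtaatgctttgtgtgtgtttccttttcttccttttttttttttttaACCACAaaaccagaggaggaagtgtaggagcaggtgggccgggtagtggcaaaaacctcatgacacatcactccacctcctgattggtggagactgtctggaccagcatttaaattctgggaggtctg
RefSeq promoters were found for 9 of the 10 members, the exception being Sp7. Searched on both strands in those windows, the RUNX core began 132 bases before the start in Bglap, 128 in Spp1, 164 in one Dmp1 promoter and 80 in one Runx2 promoter, and had no match in the S100a4 window. It occurred in 14.05% of 32851 mouse promoters of the same length, and TATAAA in 12.4%. TATAAA began 31 bases before the start in S100a4 and 27 in Bglap, but 211 in Spp1. On the opposite strand, matches lay 28 bases before the start in Ibsp and 192 in an Alpl promoter. A match of this kind is a description of the letters, not of binding.

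The order of the members was read from the RPKM values the authors deposited, which are scaled to gene length and library size. S100a4 was the highest at 218 ± 113 RPKM (SD, n = 6), above 99.0% of all entries and at rank 235 by this mean. By mean CPM, which is not scaled to gene length, its rank was 1242. In tumor 25, its lowest, S100a4 was at 53.3 RPKM. Spp1 followed by mean RPKM at 7.76 ± 6.23 and Pth1r at 4.78 ± 2.42, both above the median entry, which had a mean of 1.64 RPKM. Runx2 at 0.860 ± 0.271, Alpl at 0.506 ± 0.386 and Dmp1 at 0.189 ± 0.108 lay below that median. Bglap (0.0405 ± 0.0646), Sp7 (0.0358 ± 0.0332), Sost (0.0312 ± 0.0405) and Ibsp (0.0146 ± 0.0169) were the lowest. Only between S100a4 and Spp1 did the ranges over the tumors not overlap between neighbors in this order. Pth1r exceeded Runx2, and Dmp1 exceeded Bglap, in 6 of 6 tumors, while Spp1 exceeded Pth1r in 3 of 6.

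**Figure D1:**
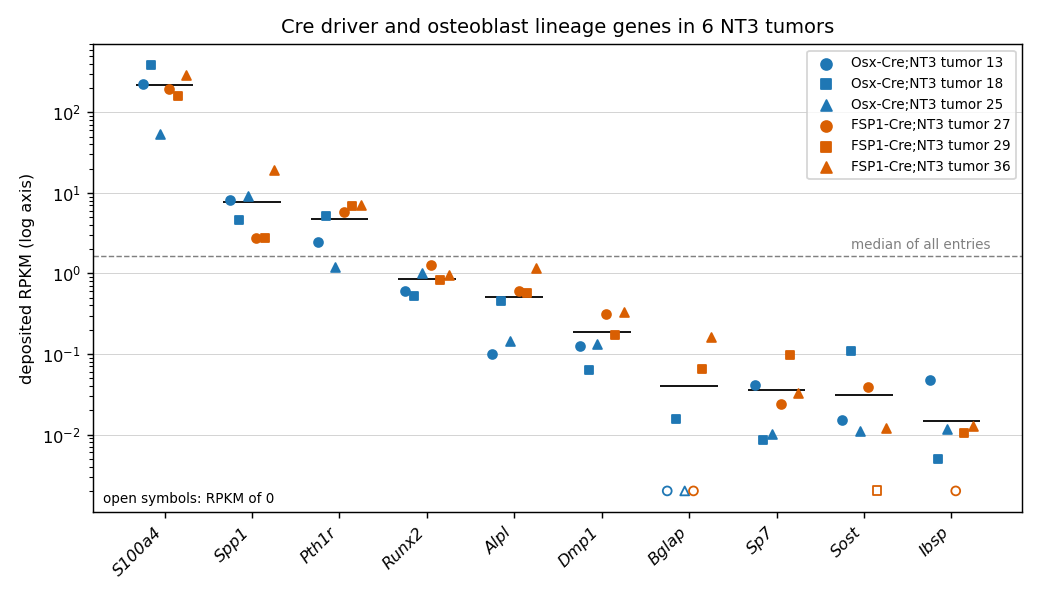
Deposited RPKM (vertical log axis) of each member (horizontal axis, in order of the mean) in the 6 tumors. Each symbol is 1 tumor, colored by line, the short bars are means over 6 tumors, open symbols mark an RPKM of 0 and the dashed line is the median of all entries at 1.64. S100a4 lies above the rest in every tumor, and the last 4 genes lie below 0.17 RPKM in every tumor.

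Sp7 encodes osterix, the transcription factor whose promoter drove Osx-Cre. The gene lies on the minus strand of chromosome 15 at chr15:102356606-102367182 (GRCm38). It had 6, 4 and 2 counts in Osx-Cre;NT3 tumors 13, 18 and 25, and 4, 22 and 6 counts in FSP1-Cre;NT3 tumors 27, 29 and 36. At 2 counts per fragment this is 1 to 11 fragments per tumor, and no tumor was at 0. The CPM were 0.124, 0.0260 and 0.0282 in Osx-Cre;NT3 and 0.0614, 0.282 and 0.0938 in FSP1-Cre;NT3 tumors. The groups overlapped, and the highest value, tumor 29, was in the line whose Cre did not use this promoter. Its 95% counting interval ran from 0.141 to 0.505 CPM, that of tumor 13 from 0.0256 to 0.363 and that of tumor 18 from 0.00315 to 0.0939, where these exact Poisson intervals treat 2 counts as 1 fragment and cover counting error only. The mean log2 CPM was higher by 0.99 in FSP1-Cre;NT3, with a two-sided exact permutation p of 0.3 over 20 assignments, of which the smallest possible is 0.1.

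Against its own family, Sp7 was the 7th of 9 SP transcription factors in all 6 tumors by RPKM. The general factors Sp3 (15.2 RPKM), Sp1 (11.3) and Sp2 (7.18), and Sp6 (9.70), an epithelial and tooth factor, made up most of the family, and Sp8 (0.00116) was the lowest. Of the 9 genes, 6 were tested, and 0 were called by edgeR or by DESeq2.

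S100a4, the source of the promoter in FSP1-Cre, lies on the plus strand at chr3:90603771-90606045. It had 7180, 38828 and 2322 counts in Osx-Cre;NT3 tumors 13, 18 and 25, and 7220, 7714 and 11548 counts in FSP1-Cre;NT3 tumors 27, 29 and 36. As CPM these were 149, 252 and 32.7 in Osx-Cre;NT3 and 111, 98.9 and 181 in FSP1-Cre;NT3 tumors. Both the highest tumor, 18, and the lowest, 25, were Osx-Cre;NT3 tumors, and all FSP1-Cre;NT3 tumors fell between them. The log2 fold change, positive where FSP1-Cre;NT3 was higher, was -0.15 ± 0.66 (SE, n = 3 per line, adjusted p = 0.934 by edgeR), with a 95% interval from -1.72 to 1.41. Without tumor 18 it was 0.52 (adjusted p = 0.819), so its direction rested on that tumor. S100a4 shares 56.3% of its 50-base windows with Gm42674, a transcript on the same strand that has no entry in the deposited table, so reads of both may have been counted together.

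**Figure D2:**
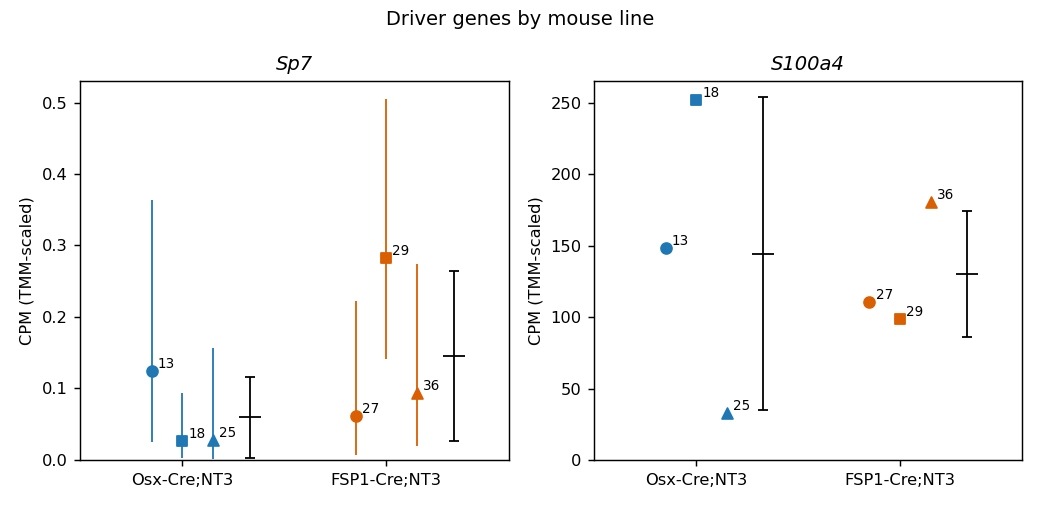
TMM-scaled CPM (vertical axis) of the driver genes Sp7 (left) and S100a4 (right) in each tumor of the lines (horizontal axis), numbered by tumor. Colored vertical lines on the left are 95% Poisson counting intervals, and black bars are the mean ± SD of 3 tumors. For Sp7 tumor 29 is the highest at 0.282 CPM, and for S100a4 the FSP1-Cre;NT3 tumors lie between Osx-Cre;NT3 tumors 25 and 18.

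S100a4 was the 5th of the S100 genes by mean RPKM, behind S100a11 (945), S100a6 (539), S100a10 (299) and S100a14 (234), and between 3rd and 6th in single tumors. Most S100 genes encode small calcium-binding proteins. S100pbp, which the list also holds, encodes a binding partner rather than an S100 protein. S100a5 was the lowest at 0.0430 RPKM. Of the 17 list genes, 14 were tested, 7 with a higher and 7 with a lower estimate in FSP1-Cre;NT3, with a median log2 fold change near 0 and 0 called by edgeR. S100a11, at 891, 666 and 675 CPM in Osx-Cre;NT3 and 449, 502 and 418 CPM in FSP1-Cre;NT3 tumors, had groups that did not overlap (log2 fold change -0.71 ± 0.22, adjusted p = 0.458 by edgeR, 0.051 by DESeq2).

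S100a8 and S100a9 encode the chains of calprotectin, an abundant neutrophil protein, and both were highest in tumor 36. S100a9 had 22.5, 17.9 and 4.93 CPM in Osx-Cre;NT3 and 74.6, 15.2 and 269 CPM in FSP1-Cre;NT3 tumors, with overlapping groups (log2 fold change 2.99 ± 1.05, adjusted p = 0.458 by edgeR and 0.035 by DESeq2). Without tumor 36 it was 1.57, and DESeq2 no longer called it without that tumor (adjusted p = 0.531) or without tumor 13, 18 or 27 (0.077, 0.286 and 0.052). S100a8 had 26.4, 21.9 and 4.48 against 59.6, 25.4 and 165 CPM (log2 fold change 2.25 ± 0.85, adjusted p = 0.458 by edgeR and 0.095 by DESeq2). The neutrophil marker list, which holds both genes, summed to 22.1 to 65.7 CPM in Osx-Cre;NT3 and 55.3 to 480 CPM in FSP1-Cre;NT3 tumors. In tumor 36, S100a9 at 269 CPM and S100a8 at 165 CPM made up most of the 480 CPM, so this sum largely repeats their values. The part of neutrophils in these values was not tested.

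**Figure D3:**
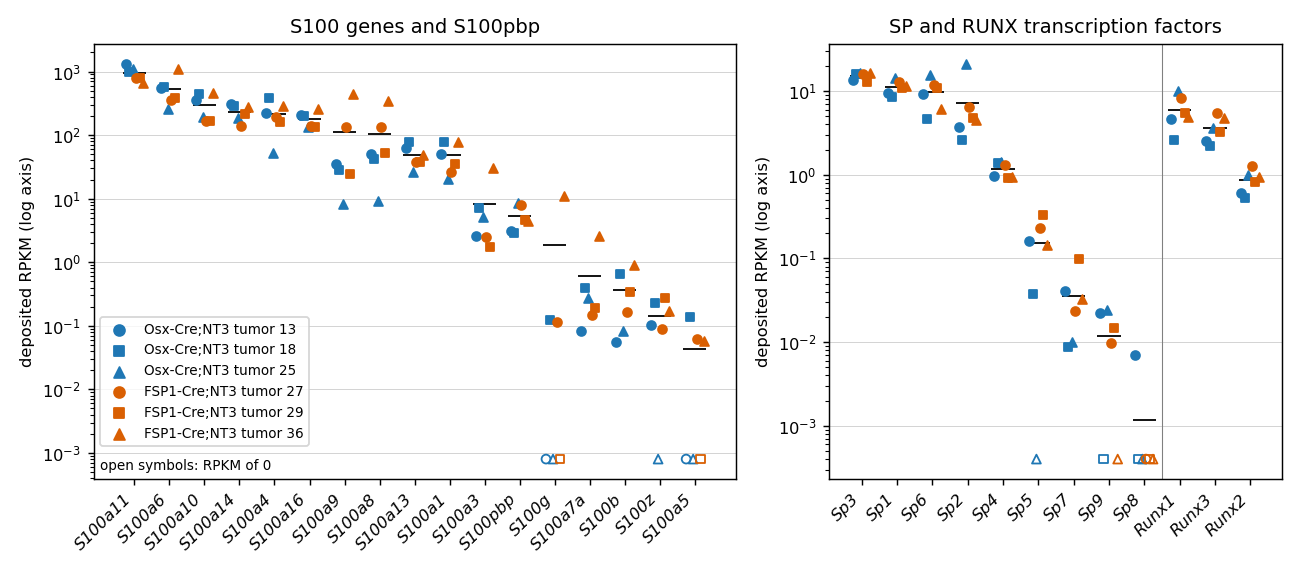
Deposited RPKM (vertical log axes) of the S100 genes with S100pbp (left) and of the SP and RUNX transcription factors (right) in the 6 tumors, with means as short bars and open symbols at an RPKM of 0. S100a4 is the 5th from the left among S100 genes, and Sp7 and Runx2 lie well below the leading members of their families.

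Runx2, the transcription factor that starts the osteoblast lineage, lies on the minus strand at chr17:44495987-44814797. Its CPM were 5.59, 4.77 and 8.56 in Osx-Cre;NT3 and 9.85, 7.13 and 8.13 in FSP1-Cre;NT3 tumors, so that tumor 25 overlapped the other line. The log2 fold change was 0.41 ± 0.33 (adjusted p = 0.610 by edgeR), with a 95% interval from -0.38 to 1.20. Without tumor 25, DESeq2 gave 0.67 with an adjusted p of 0.048, while edgeR gave 0.65 with an adjusted p of 0.244. That DESeq2 fit called 3650 of 16010 genes, so a call in it sets Runx2 little apart. Runx2 was the lowest of the 3 RUNX genes in every tumor, at 0.860 RPKM against 5.99 for Runx1, a blood and epithelial factor, and 3.63 for Runx3, and made up 6.81% to 9.82% of their summed RPKM.

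Of 11 osteoblast transcription factors, 9 were tested, 6 with a higher and 3 with a lower estimate in FSP1-Cre;NT3, with a median log2 fold change of 0.41 and 0 called by either tool. The median over all 16415 genes tested was 0.01, and 51.1% of them had a higher estimate. The highest by RPKM were Atf4 (78.9), Cbfb (23.0), the partner of the RUNX proteins, and Twist1 (15.1), and Dlx6 was at 0 in all tumors. Twist1 had 23.1, 30.8 and 9.01 CPM in Osx-Cre;NT3 and 39.0, 41.7 and 39.6 CPM in FSP1-Cre;NT3 tumors, without overlap (log2 fold change 0.93 ± 0.42, adjusted p = 0.463 by edgeR).

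Alpl encodes the tissue-nonspecific alkaline phosphatase that bone needs to mineralize. Its CPM were 0.331, 1.51 and 0.451 in Osx-Cre;NT3 and 1.72, 1.80 and 3.63 in FSP1-Cre;NT3 tumors, and the groups did not overlap, by a narrow gap between tumors 18 and 27. The log2 fold change was 1.62 ± 0.70 (adjusted p = 0.458 by edgeR and 0.268 by DESeq2), with a 95% interval from -0.04 to 3.29. Without tumor 18 it was 2.59 in both tools, with an adjusted p of 0.557 by edgeR and 0.006 by DESeq2, so the call by DESeq2 depended on 1 tumor. That DESeq2 fit called 499 of 16567 genes. Alpl made up from 17.6% to 90.01% of the summed RPKM of the 4 alkaline phosphatase genes, and the rest was mostly Akp3, an intestinal form with a mean of 0.510 RPKM, and in tumor 18 Alppl2.

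Dmp1, an acidic phosphoprotein of the osteocyte matrix, had 0.455, 0.234 and 0.451 CPM in Osx-Cre;NT3 and 0.982, 0.590 and 1.13 CPM in FSP1-Cre;NT3 tumors. These values rest on 22 to 72 counts. All FSP1-Cre;NT3 tumors lay above all Osx-Cre;NT3 tumors, with a log2 fold change of 1.25 ± 0.51 and a 95% interval from 0.04 to 2.46 (adjusted p = 0.458 by edgeR and 0.322 by DESeq2). In trunk tumors alone, which leaves FSP1-Cre;NT3 with tumor 29, the log2 fold change was 0.64.

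Pth1r, the receptor for parathyroid hormone and its related peptide on osteoblasts and on other cells such as those of the dermis and kidney, had 8.94, 18.6 and 4.03 CPM in Osx-Cre;NT3 and 18.1, 23.5 and 23.95 CPM in FSP1-Cre;NT3 tumors. Tumor 18 overlapped the other line. The log2 fold change was 1.05 ± 0.53 (adjusted p = 0.466 by edgeR and 0.344 by DESeq2), with a 95% interval from -0.20 to 2.30. Without tumor 18 it was 1.75 by edgeR (adjusted p = 0.557), and DESeq2 gave an adjusted p of 0.008 in a fit that called 499 of 16567 genes. Without tumor 25 the log2 fold change was 0.60. Pth1r shares 95 exonic bases with Myl3 on the opposite strand, and the strand setting of the counting is not given in the sources used here. Myl3 itself had 6 to 658 counts, against 286 to 2856 for Pth1r.

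**Figure D4:**
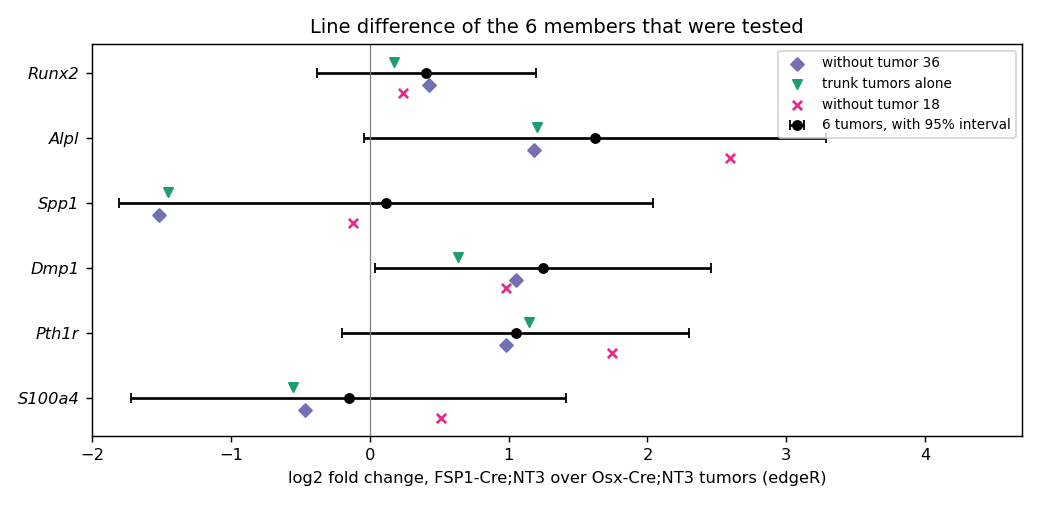
Log2 fold change by edgeR, positive where FSP1-Cre;NT3 tumors were higher (horizontal axis) for the 6 members with enough counts to test. Black points and bars are the estimate from 6 tumors and its 95% interval, and colored symbols are the estimates without tumor 36, without tumor 18 and in trunk tumors alone. Spp1 changes sign without tumor 36, without tumor 18 and in trunk tumors alone, and S100a4 without tumor 18, while Runx2, Alpl, Dmp1 and Pth1r stay above 0 in these fits.

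Of the 10 members, 6 passed the filter on low counts, namely S100a4, Runx2, Alpl, Spp1, Dmp1 and Pth1r. By edgeR 0 of the 6 were called, as were 0% of all genes tested (smallest adjusted p 0.359), and 1770 genes, 10.8%, had an unadjusted p under 0.05. By DESeq2 0 of the 6 were called either, beside 2.72% of 15461 genes with an adjusted p, 2.28% higher and 0.440% lower in FSP1-Cre;NT3. Higher without overlap in FSP1-Cre;NT3 were 2 of the 6, Alpl and Dmp1, beside 9.03% of all genes tested, and lower without overlap 0, beside 7.97%. At an unadjusted p under 0.05 edgeR gave 1 of the 6, Dmp1, higher in FSP1-Cre;NT3, beside 7.31% of all genes in that direction, and 0 lower, beside 3.47%.

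Spp1 encodes osteopontin, a secreted phosphoprotein of bone that macrophages and epithelia also make. Its CPM were 17.9, 10.1 and 18.5 in Osx-Cre;NT3 and 5.19, 5.67 and 39.6 in FSP1-Cre;NT3 tumors. Tumors 27 and 29 were below every Osx-Cre;NT3 tumor and tumor 36 above every one, so the line means of 15.5 ± 4.66 and 16.8 ± 19.7 CPM (SD, n = 3 each) hide an unequal spread. The log2 fold change was 0.12 ± 0.81 (adjusted p = 0.959 by edgeR), with a 95% interval from -1.80 to 2.04. Without tumor 36 it was -1.51 (adjusted p = 0.680 by edgeR), and DESeq2 gave -1.53 with an adjusted p of 0.015. That DESeq2 fit called 196 of 15656 genes. In trunk tumors alone the log2 fold change was -1.45.

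Spp1, Dmp1 and Ibsp belong to a family of acidic matrix glycoproteins encoded side by side on chromosome 5 with Mepe and Dspp. Spp1 made up 89.3% to 98.5% of their summed RPKM and Dmp1 1.37% to 10.2%. Mepe had a mean of 0.00269 RPKM and Dspp, the dentin gene, was at 0 in all tumors.

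The remaining members, Bglap, Ibsp and Sost, were at the edge of detection and, like Sp7, were left out of the fit by the filter on low counts. Osteocalcin (Bglap) had 0, 2 and 0 counts in Osx-Cre;NT3 and 0, 4 and 8 counts in FSP1-Cre;NT3 tumors. A count of 0 allows up to 0.0579 CPM in tumor 13, 0.0427 in tumor 25 and 0.0504 in tumor 27, taking 3 counts of the total as the limit and library totals without TMM scaling. The exact Poisson intervals at 2 counts per fragment, on TMM-scaled CPM, reached higher, to 0.153, 0.104 and 0.113 CPM. The difference in mean log2 CPM was 1.20 (exact permutation p = 0.4). Bglap2 had 4 counts in tumor 18 and 0 elsewhere.

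Bone sialoprotein (Ibsp), which seeds mineral in young bone, had 6, 2 and 2 counts in Osx-Cre;NT3 and 0, 2 and 2 counts in FSP1-Cre;NT3 tumors (exact permutation p = 0.5). Sclerostin (Sost), the inhibitor of Wnt signaling secreted by osteocytes, had 2, 46 and 2 counts in Osx-Cre;NT3 and 6, 0 and 2 counts in FSP1-Cre;NT3 tumors (exact permutation p = 0.5). Tumor 18, the most deeply sequenced, held 46 of the 50 Sost counts in its line, which is 0.299 CPM with a 95% counting interval from 0.189 to 0.448. For Bglap, Ibsp, Sost and Sp7 the permutation test could not pass 0.05 in this design, so it says nothing on whether the lines differ.

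Among 18 genes of bone matrix and mineralization, 15 were tested, 12 with a higher and 3 with a lower estimate in FSP1-Cre;NT3, and the median log2 fold change was 0.60. EdgeR called 0 of them and DESeq2 called 2, both higher, beside 2.28% of all genes higher and 0.440% lower. These 2 are the chains of type I collagen. Col1a1 had 1312, 886 and 1529 CPM in Osx-Cre;NT3 and 2663, 4002 and 2394 CPM in FSP1-Cre;NT3 tumors (log2 fold change 1.28 ± 0.33, adjusted p = 0.441 by edgeR and 0.012 by DESeq2). Col1a2 had 2171, 1864 and 1735 against 3567, 4469 and 3231 CPM (log2 fold change 0.97 ± 0.25, adjusted p = 0.444 by edgeR and 0.004 by DESeq2). Both chains are made in quantity by fibroblasts as well as osteoblasts. With Sparc, a collagen-binding glycoprotein at 638 RPKM, they were the most abundant genes of the list, against 0.0405 RPKM for the osteocalcin gene Bglap.

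Leaving out tumor 13 or tumor 29 lost the DESeq2 call of Col1a1 (adjusted p = 0.098 and 0.077), and leaving out tumor 27 lost that of Col1a2 (adjusted p = 0.057).

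Fibroblast markers, set beside these values, also stood higher in FSP1-Cre;NT3 tumors. Their summed CPM was 2305 to 4412 in Osx-Cre;NT3 and 6792 to 8443 in FSP1-Cre;NT3 tumors. Of the 10 markers, 9 had a higher estimate in FSP1-Cre;NT3, beside 51.1% of all genes tested. Higher without overlap were 7 of 10, beside 9.03% of all genes tested, and 0 were at 0 in all tumors. Pdgfra, a receptor of fibroblasts, had 20.3, 30.0 and 14.9 CPM in Osx-Cre;NT3 and 98.5, 41.4 and 110 CPM in FSP1-Cre;NT3 tumors (log2 fold change 1.94 ± 0.44, adjusted p = 0.432 by edgeR and 0.004 by DESeq2). Col3a1 (log2 fold change 1.01), Fbln1 (1.52) and Col6a1 (1.49) were also called by DESeq2 and not by edgeR, and Dcn (1.52) and Pi16 (2.45) by neither. Over all genes with an adjusted p, DESeq2 called 2.28% higher in FSP1-Cre;NT3. The DESeq2 call of Pdgfra was lost without tumor 13 or 36 (adjusted p = 0.071 and 0.055), and that of Col6a1 held without each tumor in turn, with adjusted p up to 0.015. Col3a1 (adjusted p up to 0.244) lost its DESeq2 call without tumor 13, 27, 29 or 36, and so did Fbln1 (up to 0.163). The part of fibroblasts in the values of Alpl, Pth1r, Dmp1 and type I collagen was not tested.

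**Figure D5:**
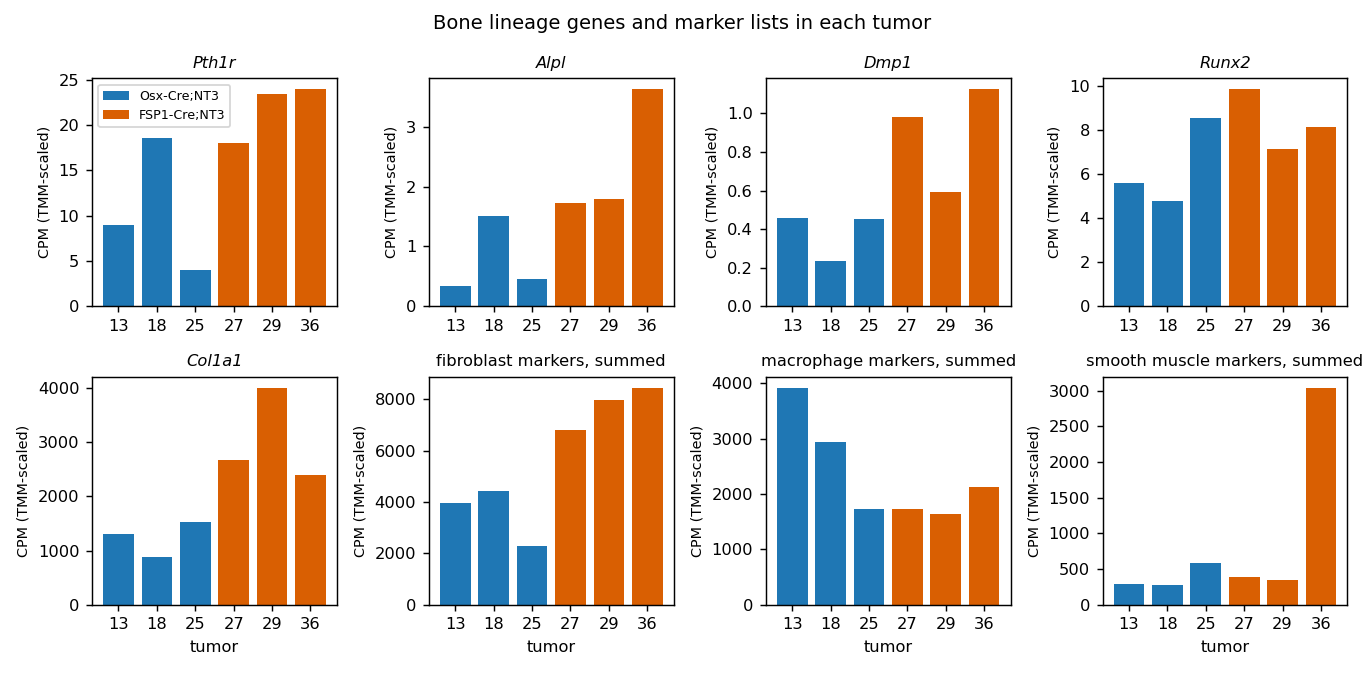
TMM-scaled CPM (vertical axes, from 0) in each tumor (horizontal axis, colored by line) of Pth1r, Alpl, Dmp1, Runx2 and Col1a1 and of the summed fibroblast, macrophage and smooth muscle markers. Each bar is 1 tumor. Fibroblast markers sum to 6792 to 8443 CPM in the FSP1-Cre;NT3 tumors, above all Osx-Cre;NT3 tumors, and smooth muscle markers reach 3036 CPM in tumor 36.

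The sphingomyelinase gene Smpd3, which bone mineralization requires, was at 84.2 CPM in tumor 36 and at 0.844 to 1.49 CPM in the other tumors, so its log2 fold change of 4.92 ± 1.73 (adjusted p = 0.458 by edgeR) became 0.47 without that tumor. Tumor 36 was also the highest for Alpl, Spp1, Dmp1, Pth1r and Bglap among the members.

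Of 7 osteocyte genes, 5 were tested, 3 higher and 2 lower in estimate, with 0 called by either tool. Fgf23, the phosphate-regulating hormone of osteocytes, was low throughout but did not overlap, at 0.0414, 0.0650 and 0.141 CPM in Osx-Cre;NT3 and 0.460, 0.333 and 0.875 CPM in FSP1-Cre;NT3 tumors (log2 fold change 2.72 ± 0.69, adjusted p = 0.441 by edgeR and 0.075 by DESeq2). The most abundant of the list was Pdpn, a membrane glycoprotein of osteocytes that is shared with lymphatic endothelium, basal keratinocytes and fibroblasts. It had 572, 512 and 466 CPM in Osx-Cre;NT3 and 354, 369 and 157 CPM in FSP1-Cre;NT3 tumors (log2 fold change -0.82 ± 0.35, adjusted p = 0.458 by edgeR). Fam20c, a kinase of secreted proteins, was at 10.9 RPKM and Mepe was the lowest of the list.

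Around Pth1r, 5 of 6 genes of parathyroid hormone signaling and osteoclast control were tested, 2 higher and 3 lower in estimate, with a median log2 fold change of -0.23 and 0 called by either tool. Gnas, which encodes the G protein that couples to the receptor, was the most abundant at 75.3 RPKM, followed by Pthlh (17.1), the ligand made by epithelia, and Tnfrsf11b (9.72), the decoy receptor that restrains osteoclasts. Pth, the hormone of the parathyroid gland, had 0 counts in 5 of 6 tumors.

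Markers of osteoclasts, the cells that resorb bone, summed to 396 to 494 CPM in Osx-Cre;NT3 and 398 to 485 CPM in FSP1-Cre;NT3 tumors. Ctsk (72.5 RPKM) and Acp5 (43.7 RPKM), which macrophages and fibroblasts can also express, led the list. Of 10 tested, 5 had a higher and 5 a lower estimate. Dcstamp, a membrane protein needed for osteoclast fusion, had 11.97, 13.8 and 11.3 CPM in Osx-Cre;NT3 and 0.890, 0.462 and 0.938 CPM in FSP1-Cre;NT3 tumors. Its log2 fold change of -4.01 ± 0.40 had the smallest unadjusted p of all genes tested by edgeR (adjusted p = 0.359), and DESeq2 called it, also without each tumor in turn. Itgb3, the integrin chain of osteoclasts and platelets, had 7.37, 5.78 and 13.7 against 20.4, 17.7 and 28.4 CPM (log2 fold change 1.30 ± 0.39, adjusted p = 0.458 by edgeR and 0.066 by DESeq2).

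Macrophages are known to express S100a4 and Spp1 too. Of 9 macrophage markers tested, 2 had a higher and 7 a lower estimate in FSP1-Cre;NT3. Lyz2 had 2275, 1315 and 830 CPM in Osx-Cre;NT3 and 677, 835 and 701 CPM in FSP1-Cre;NT3 tumors (log2 fold change -0.998 ± 0.384, adjusted p = 0.458 by edgeR), and C1qb was at 233 RPKM. Mrc1, a mannose receptor, had 16.2, 42.5 and 18.8 against 114, 45.9 and 243 CPM (log2 fold change 2.38 ± 0.67, adjusted p = 0.458 by edgeR and 0.014 by DESeq2). The DESeq2 call of Mrc1 was lost without tumor 13 (adjusted p = 0.156) or tumor 36 (0.183).

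Of the other marker lists, 4 of 8 chondrocyte markers tested had a higher estimate in FSP1-Cre;NT3, with Sox9 (12.7 RPKM) and Col2a1 (1.01 RPKM) the most abundant. Neutrophil markers had 7 of 8, endothelial markers 7 of 8, smooth muscle markers 8 of 8 and basal keratinocyte markers 1 of 6 with a higher estimate. Of all genes tested, 51.1% had a higher estimate, and edgeR called 0 in each list. Smooth muscle markers summed to 296, 277 and 587 CPM in Osx-Cre;NT3 and 394, 345 and 3036 CPM in FSP1-Cre;NT3 tumors. Tumors 27 and 29 thus lay below tumor 25 in that sum. DESeq2 called 2 endothelial markers higher, Tek (log2 fold change 1.09) and Erg (1.30), 1 chondrocyte marker higher, Acan (2.04), and 1 lower, Col10a1 (-2.30), and in the neutrophil list only S100a9. Over all genes with an adjusted p, it called 2.28% higher and 0.440% lower. How the calls of Tek, Erg, Acan and Col10a1 depend on single tumors is not reported here. Endothelial markers summed to 161 to 350 CPM in Osx-Cre;NT3 and 383 to 514 CPM in FSP1-Cre;NT3 tumors.

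The genes most like each driver over the 6 tumors were sought among those tested whose highest and lowest tumor differed by at least 1 on the log2 scale, by the mean absolute difference of log2 CPM after each gene was centered on its mean. For S100a4 they were Batf (0.135), Lgals1 (0.137) and Fbxl13 (0.148) of 10139 genes searched, with the 10th at 0.213. Lgals1, which encodes a galectin, had 234, 464 and 71.5 CPM in Osx-Cre;NT3 and 186, 191 and 301 CPM in FSP1-Cre;NT3 tumors, highest in tumor 18 and lowest in tumor 25 like S100a4. For Sp7 they were D430041D05Rik (0.247), Col11a1 (0.271) and Fam59b (0.303), a likeness that rests on 2 to 22 counts of Sp7 per tumor. Col11a1, a chain of a cartilage and fibroblast collagen, had 67.7, 21.6 and 21.6 CPM in Osx-Cre;NT3 and 59.2, 90.2 and 42.6 CPM in FSP1-Cre;NT3 tumors.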

How the data were processed

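RNA from 6 NT3 tumors was sequenced by the authors, 3 per mouse line, each from a separate mouse. The authors deposited raw read counts per gene, without normalization, and RPKM values, which are counts divided by gene length and library size. The study's methods name alignment to mm10 with HISAT2 and counting with featureCounts, whereas the submitters' processing notes list TopHat2 2.0.6 and HTSeq, so which tools made the table is unclear. The annotation and the strand setting are not given in the sources used here. Each tumor was assigned to its line by its title, and columns were matched by tumor number.

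Tests on the counts used edgeR 4.0.16 with R 4.3.3 (filterByExpr, TMM, glmQLFit, glmQLFTest, no covariate), adjusted by Benjamini-Hochberg over 16415 genes with a threshold of 0.05. DESeq2 1.42.0 on the genes passing the same filter was the alternative, and further alternatives changed the scaling, filter, site term and tumors. CPM are counts over TMM-scaled library sizes. The 4 members that failed the filter were compared by an exact permutation test on log2 CPM (prior count 2). Such intervals and limits cover counting error only, since reads carried no molecular identifiers. The edgeR test was first run on simulated counts with known changes. The share of those changes that it called is not reported here, so the lack of edgeR calls does not show that the lines are alike. Gene positions and coding sequences came from GENCODE M21 (GRCm38) and promoters from RefSeq (GRCm38.p6).

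The members and the 17 gene lists, 143 of whose 144 genes were found, were chosen with earlier results of these data known. Named genes were the members; in lists other than cell type markers, the 3 highest and the lowest by mean RPKM and any gene with an unadjusted p under 0.05; in marker lists, the 2 highest and some with such a p; and the 3 genes most like each driver. Sp2, S100a14 and Myl3 were named beside these for comparison with a member, after their values were seen. Some genes of the lists are counted but not reported here by name.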

Additional observations from a re-analysis of the deposited data

How the results depend on the processing

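No paired analysis was possible, because each tumor came from a separate mouse and no pairing between the lines is described. EdgeR called 0 genes with each other scaling, filter, site term, halved counts, trunk tumors alone and without any single tumor. DESeq2 called 420 genes, of which 352 were higher in FSP1-Cre;NT3, and, in fits chosen after seeing the data, from 196 (without tumor 36) to 3650 (without tumor 25), with 236, 499, 460 and 731 without tumors 13, 18, 27 and 29. Among bone matrix genes DESeq2 called 2, both higher, where edgeR called 0. The S100a4 log2 fold change turned from -0.15 to 0.52 by edgeR and 0.50 by DESeq2 without tumor 18, and ranged from -0.68 to 0.52 when single tumors were left out. That of Spp1 turned from 0.12 to -1.45 with site as a covariate and in trunk tumors alone, to -0.12 by edgeR and -0.11 by DESeq2 without tumor 18, and to -1.51 and -1.53 without tumor 36, a range of -1.51 to 0.53 by edgeR when single tumors were left out. That of S100a9 turned from 2.99 to -0.0021 in trunk tumors alone. The cause was not tested. Runx2, Alpl, Dmp1 and Pth1r kept their direction under every alternative run, and the mean log2 CPM of each member moved by less than its SD over tumors. With library sizes alone the median log2 fold change of all genes rose from 0.01 to 0.13, and the values of members rose along with it, S100a4 to -0.02. Sp7, Bglap, Ibsp and Sost rest on 0 to 46 counts per tumor.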
